A study of Mus musculus with 6 samples.

Results

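The 10 genes described here encode the NF-κB subunits (Nfkb1, Nfkb2, Rel, Rela and Relb) and 5 inhibitors of NF-κB signalling (Nfkbia, Nfkbie, Nfkbiz, Tnfaip3 and Bcl3). They were chosen by name. All 10 were present in the count table, which holds 46963 gene names, and all 10 were among the 14600 genes that reached 10 counts in 2 or more of the libraries, which were tested.

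The study measured total RNA of CD43- splenic B-cells, that is, spleen cells depleted of cells carrying the surface protein CD43, by RNA-seq in mice lacking an enhancer of the immunoglobulin heavy chain (IgH) locus. The groups were wt mice, Eμ-deficient mice (the methods name the deleted element EμMAR, the enhancer with its matrix attachment regions) and mice lacking the 3′ regulatory region (3′RR-deficient), each with a resting library and a library of cells given LPS at 5 μg per ml for 2 days. Each deletion is carried by every cell of the mutant mice, the strain background was 129, and the methods give an age of 8 to 12 weeks for the cultured spleen cells, male and female. LPS is the bacterial lipopolysaccharide that activates B-cells through the receptor TLR4. The labels state that resting cells were also kept in culture for 2 days, whereas the methods describe cells taken before and after stimulation, and a protocol text of the labels gives the LPS dose in mg where the stimulation label gives μg. Each of the 6 groups was 1 library, a pool of 2 mice per the labels, while the methods speak of 4 mice and 2 pools per genotype. The caption of the RNA-seq figure in the paper gives yet another number of mice per genotype, in 2 independent experiments. With 1 library per group, the spread between mice is not measured, and no test between genotypes was possible within a culture state. Genes received 16094475, 13406257 and 20780706 counts in the resting wt, Eμ-deficient and 3′RR-deficient libraries, and 21998587, 10936243 and 9111974 counts in the LPS libraries in the same order.

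NF-κB transcription factors are dimers of the subunits, held inactive in the cytoplasm by inhibitor (IκB) proteins until a kinase complex, IKK, marks the inhibitor for destruction. Freed dimers enter the nucleus, bind DNA at κB sites and switch on many genes, among them those of their own inhibitors, which closes a negative feedback loop. In B-cells the pathway serves survival, proliferation and the response to antigen and to TLR ligands, with Rel prominent in mature cells.

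The labelled cell type was checked against marker genes. The B-cell markers Cd79a, Cd79b, Ms4a1, Pax5 and Cd22 were detected in every library. Cd79a was at 569.6, 270.7 and 585 CPM (the counts of a gene relative to the TMM-scaled size of its library) in resting wt, Eμ-deficient and 3′RR-deficient cells and at 252, 237 and 349 CPM in the LPS libraries, and Pax5 was at 579, 398 and 562 CPM at rest and at 431, 352 and 450.3 CPM with LPS. Both were lower with LPS in each genotype, as was Cd22. Ms4a1 was at 339, 443 and 461 CPM at rest and at 583, 420.4 and 259.8 CPM with LPS, so that it was higher with LPS in wt cells, and Cd79b was at 300.9, 217 and 396 CPM at rest and at 198, 228 and 313 CPM with LPS, slightly higher with LPS in Eμ-deficient cells. Markers of other blood cells were present in the resting libraries, and the sums of the erythroid, myeloid, dendritic, T-cell, NK cell and megakaryocyte markers were lower with LPS in each genotype. The 7 erythroid markers summed to 3354, 20144 and 3864 CPM at rest and to 53.2, 670.3 and 133 CPM with LPS, so that the resting Eμ-deficient library stood apart, with Hbb-bs the most abundant of them there at 7237 CPM. The 9 myeloid markers summed to 152, 366 and 154 CPM at rest and to 21.4, 35.4 and 28.5 CPM with LPS, and S100a9, Mpo and Elane were at 0 in the wt LPS library. The 4 dendritic markers summed to 60.8, 128 and 66.6 CPM at rest and 28.5, 31.5 and 30.8 CPM with LPS, nearly all of the latter being Flt3, which was higher with LPS in wt (17.1 and 27.7 CPM) and 3′RR-deficient cells (19.0 and 29.3 CPM). The 6 T-cell markers summed to 15.1, 32.3 and 20.8 CPM at rest and 0.335, 4.68 and 1.24 CPM with LPS. NK cell markers (4 genes) stayed at or below 6.22 CPM and megakaryocyte markers (3 genes) at or below 17.8 CPM in every library, and of the latter Pf4 was higher with LPS in Eμ-deficient cells (1.74 and 2.15 CPM). The 4 plasma cell markers summed to 174, 1866 and 226 CPM at rest and 314, 1224 and 505 CPM with LPS, higher with LPS in wt and 3′RR-deficient cells, lower in Eμ-deficient cells, and highest in both Eμ-deficient libraries, where Jchain alone reached 1734 and 803 CPM. Spn, which encodes CD43, was detected at 14.0, 10.1 and 17.2 CPM at rest and at 20.03, 40.4 and 90.1 CPM with LPS.

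Technical measures also set libraries apart. The added spike-in RNAs, a fixed mixture, should keep their proportions, yet the log2 ratio of the 35 abundant ones between the LPS libraries of 3′RR-deficient and wt cells had an SD of 1.27, against 0.44 for Eμ-deficient and wt cells with LPS, 0.78 for wt, 0.63 for 3′RR-deficient and 0.14 for Eμ-deficient cells with and without LPS. GC content moved with the same pairs. In the 3′RR-deficient relative to the wt LPS library, the median log2 ratio ran from -0.88 among the most GC-poor 10% of genes to 0.79 among the most GC-rich 10%, and in wt cells with relative to without LPS from 0.51 to -0.70. The same medians with relative to without LPS were -0.53 (GC-poor) and 0.05 (GC-rich) in 3′RR-deficient cells, and -0.17 (GC-poor) and -0.02 (GC-rich) in Eμ-deficient cells. In the resting Eμ-deficient relative to the resting wt library it ran from 0.49 to -0.44. Among the genes described here, GC content of the exons ran from 42.5% for Rel to 62.6% for Bcl3. Values with the trend on GC content removed are therefore given for many of the ratios.

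κB sites are the DNA element through which these genes can be regulated by their own products, so that promoter sequences were searched for them. Of the 10 genes, 7 had 1 or more RefSeq promoter windows of 300 bases (250 before to 50 after a transcription start, GRCm38.p6), and Nfkb1, Relb and Nfkbiz had none. A match to the κB consensus, sought on both strands, was found in 8 of the 10 windows and for 6 of the 7 genes, and in 8.46% of all 32851 windows. That share is per window, and the share of all genes was not counted. The windows are not all separate, since Nfkb2 windows overlap and share a match. Among the genes the exception was Rela, whose window held no match, and a second Tnfaip3 start also lacked one. Stretches before the most upstream RefSeq start of each gene follow, 5′ to 3′ on the strand of the gene, with the bases matching the consensus in capitals. Each match has up to 40 bases on either side and ends at the start at the latest. For Nfkb2 and the far Tnfaip3 match, where that stretch touches an exon of a longer transcript in GENCODE, 30 bases are shown. The Nfkb2 matches lie inside such an exon, and both Tnfaip3 matches in an intron of such a transcript.
Nfkb2, chr19:46304688-46304717, plus strand: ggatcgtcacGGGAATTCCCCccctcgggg
Rel, chr11:23771011-23771101, minus strand: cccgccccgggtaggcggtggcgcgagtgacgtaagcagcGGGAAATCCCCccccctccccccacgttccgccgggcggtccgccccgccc
Nfkbia, chr12:55492648-55492716, minus strand: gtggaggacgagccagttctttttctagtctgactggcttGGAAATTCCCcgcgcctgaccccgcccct
Nfkbie, chr17:45555554-45555643, plus strand: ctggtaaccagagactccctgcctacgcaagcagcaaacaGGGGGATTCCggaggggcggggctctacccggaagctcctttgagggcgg
Tnfaip3, far match, chr10:19015516-19015545, minus strand: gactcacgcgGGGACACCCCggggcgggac
Tnfaip3, near match, chr10:19015411-19015462, minus strand: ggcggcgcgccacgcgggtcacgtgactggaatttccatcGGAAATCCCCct
In Nfkb2 and Rel the capitals cover overlapping matches, the first beginning 39 and 92 bases before the start. A further Nfkb2 match, 11 bases before the same start, is not shown. The Nfkbia, Nfkbie and Tnfaip3 matches began 29 bases, 106 bases and 125 and 12 bases before the start. Bcl3 held its only match just past its start, within the first exon, and it is not shown. A match says only that the letters are present. Of the genes with a match, Rel, Nfkbie and Tnfaip3 fell with LPS, Nfkbia and Bcl3 rose, and Nfkb2 did not pass.

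The first comparison asked how these mRNAs differed between LPS-treated and resting cells. LPS against resting was fitted over all 6 libraries with genotype as a block (2 residual degrees of freedom). The errors and adjusted p-values therefore rest on how evenly the 3 genotypes responded and not on a spread between mice. The fit pools that spread across all genes tested, so a gene's own evenness sets its error only in part. The SEs of Tnfaip3 (log2 ratios -1.88, -1.86 and -1.75) and Nfkb1 (-0.38, 0.23 and 0.45) were 0.24 and 0.26. With edgeR and an adjusted p threshold of 0.05, 6 of the 10 genes passed. Nfkbia and Bcl3 rose, 2 of 10 against 19.7% of all genes tested, and Rel, Relb, Nfkbie and Tnfaip3 fell, 4 of 10 against 21.1% of all genes tested. The median log2 fold change was -0.69 for the 10 genes and -0.07 for all genes tested. Without overlap, the 3 LPS libraries lay above the 3 resting libraries for Nfkbia and Bcl3, as for 25% of genes tested, and below them for Rel, Relb, Nfkbie, Nfkbiz and Tnfaip3, as for 27.3%. With the trend on GC content removed, Nfkbiz lost this separation and Nfkb2 and Rela gained it. The shares of all genes were not counted in that setting. In these bulk samples, fewer cells of a type and less RNA per cell cannot be told apart, and the part of the myeloid, dendritic, T-cell and erythroid RNA lost with LPS in these changes was not tested.

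**Figure D1:**
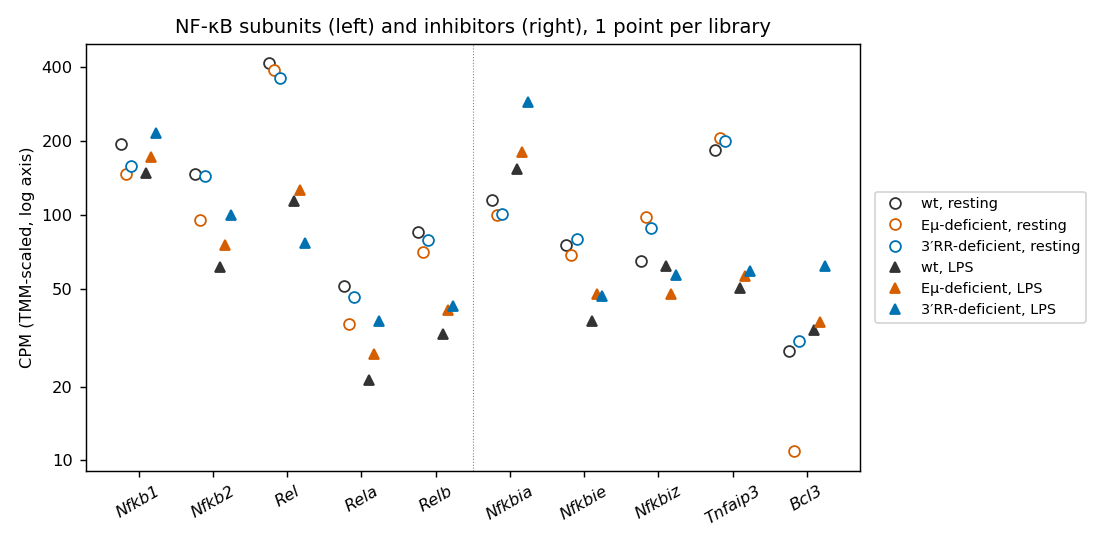
CPM (TMM-scaled, logarithmic vertical axis) of the 5 subunits, left of the dotted line, and the 5 inhibitors, right of it, with 1 point per library (open circles resting, filled triangles LPS, colour by genotype). Rel and Tnfaip3 fell clear of their resting values in every genotype, Nfkbia lay above them, and Bcl3 was lowest in the resting Eμ-deficient library at 10.9 CPM.

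Rel (chr11:23736847-23770970, minus strand), the subunit that mature B-cells are known to depend on for proliferation, was the most abundant of the 5 subunits per length of exon in each resting library. It was at 414, 389 and 359.7 CPM in resting wt, Eμ-deficient and 3′RR-deficient cells and at 114, 126 and 77.1 CPM with LPS. The resting values lay close together, and every LPS library lay far below them. The log2 fold change was -1.90 (SE 0.26, adjusted p = 0.000727), and it was below 0 in 3 of 3 genotypes, with the LPS library at 0.276, 0.324 and 0.214 times the resting level. Its call held in every alternative fit.

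Relb (chr7:19606217-19629438, minus strand) encodes the subunit that pairs with the Nfkb2 product in the slower, non-canonical branch of the pathway. Its levels were 84.9, 70.9 and 79.2 CPM at rest and 32.9, 41.0 and 42.6 CPM with LPS. The groups did not overlap, and Relb fell by 1.02 on the log2 scale (SE 0.23, adjusted p = 0.0079), below 0 in 3 of 3 genotypes. The call was lost only when both Eμ-deficient libraries were left out (adjusted p = 0.062), with a log2 fold change no smaller than with all libraries (-1.04). Removing the trend on GC content moved the log2 ratio from -1.37 to -0.60 in wt and from -0.90 to -0.97 in 3′RR-deficient cells. That of Eμ-deficient cells was -0.79 with and without the trend.

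Nfkb2 (chr19:46304320-46312385, plus strand) encodes the precursor from which the non-canonical branch releases a DNA-binding subunit. It was at 147, 95.2 and 144 CPM at rest and at 61.1, 75.5 and 99.7 CPM with LPS. The LPS library of 3′RR-deficient cells lay above the resting library of Eμ-deficient cells, so the groups overlapped. With the trend on GC content removed they did not, with 108 CPM or more at rest and 84.8 CPM or less with LPS. The log2 fold change of -0.71 (SE 0.26) missed the threshold (adjusted p = 0.0565), although the ratio was below 0 in 3 of 3 genotypes. It passed with DESeq2 (adjusted p = 0.0346), with the trend on GC content removed (log2 fold change -0.52, adjusted p = 0.0288) and with a stricter filter (adjusted p = 0.0393). Without the resting wt library, the wt LPS library or both, the log2 fold change shrank to -0.42, -0.43 and -0.41. Psd, on the opposite strand, shares 299 bases of exon with Nfkb2 and had between 1 and 20 counts per library, against 806 or more for Nfkb2.

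Rela (chr19:5637483-5648130, plus strand), the subunit with a strong activation domain that is found in most cell types, had 51.4, 35.9 and 46.5 CPM at rest and 21.3, 27.3 and 37.0 CPM with LPS. Here too a single LPS value, that of 3′RR-deficient cells, exceeded the lowest resting value. With the GC trend removed Rela had 40.3 CPM or more at rest and 30.6 CPM or less with LPS, without overlap. Its log2 fold change was -0.67 (SE 0.26, adjusted p = 0.0659), below 0 in 3 of 3 genotypes. Rela passed only with the GC trend removed (log2 fold change -0.47, adjusted p = 0.0259) or a stricter filter (adjusted p = 0.0452). Without the resting wt library, the wt LPS library or both, the fold change shrank to -0.35, -0.36 and -0.34.

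Nfkb1 (chr3:135584655-135691547, minus strand), whose product partners Rela and Rel in the canonical dimers, was the exception among the subunits. It was at 194, 146 and 158 CPM at rest and at 149, 172 and 216 CPM with LPS. The wt library was lower with LPS and both mutant libraries were higher, so that the fitted log2 fold change was 0.10 (SE 0.26, adjusted p = 0.78). The fitted value turned to -0.09 without the resting and -0.07 without the LPS library of 3′RR-deficient cells. Without the resting and without the LPS library of wt cells it was 0.36 and 0.35. The log2 ratio was -0.38 (95% counting interval -0.45 to -0.31) in wt, 0.23 (0.14 to 0.33) in Eμ-deficient and 0.45 (0.37 to 0.53) in 3′RR-deficient cells. With the GC trend removed these ratios were -0.09, 0.15 and 0.30. Whether the genotypes differed in this response was not tested, since 1 library per group leaves no error to test it against.

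The proportions of the subunits thus changed. Per kb of the longest protein-coding transcript, Rel made up 28.0%, 33.0% and 27.2% of the summed subunit level in resting wt, Eμ-deficient and 3′RR-deficient cells and 17%, 15.8% and 8.49% with LPS. Nfkb1 made up 23.7%, 22.5% and 21.7% at rest and 40.1%, 39.1% and 43.1% with LPS. The share of Rel was lower and that of Nfkb1 higher with LPS in each genotype. The ratio of Nfkb1 to Rel, per kb, was 0.848, 0.682 and 0.796 at rest and 2.36, 2.47 and 5.08 with LPS. Over total exon length it was 0.290, 0.233 and 0.272 at rest and 0.805, 0.845 and 1.73 with LPS, so that it rose on either scale, while whether Nfkb1 exceeded Rel in wt and Eμ-deficient cells with LPS depended on the length used. The shares of Rela were 9.55%, 8.39% and 9.67% at rest and 8.71%, 9.39% and 11.2% with LPS. Length matters for this scale, since the exons of Nfkb1 add up to 12061 bases but its longest coding transcript to 4117. With the exon total in its place, the share of Nfkb1 was 11.3%, 10.5% and 10.2% at rest and 21.9%, 21.3% and 24.5% with LPS, and the direction was the same. That of Rela was then 11.8%, 10.2% and 11.8% at rest and 12.3%, 13.2% and 16.5% with LPS, so that its direction in wt cells depended on the length used. None of these shares and ratios was corrected for GC content. With the GC trend removed, Rel was at 95.2, 113 and 95.9 CPM with LPS in wt, Eμ-deficient and 3′RR-deficient cells, and Nfkb1 at 169, 175 and 188 CPM. The Rel level of the 3′RR-deficient LPS library was then not below that of wt. Rel remained lower with LPS than at rest in each genotype.

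**Figure D2:**
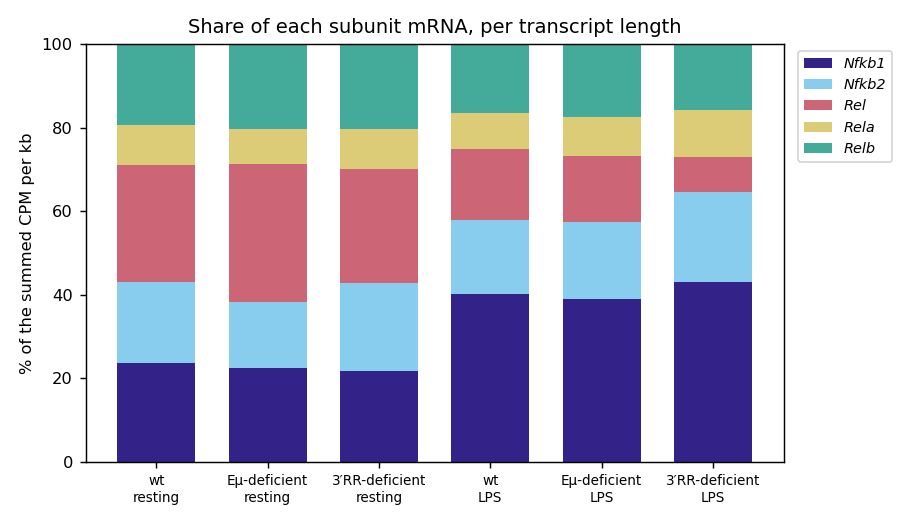
Stacked bars give, for each library, the percent of the summed CPM per kb of transcript that each of the 5 subunit mRNAs took (vertical axis 0 to 100%). No correction for GC content was made. The Rel share was 27.2% to 33.0% in the resting libraries and 8.49% to 17% with LPS, and the Nfkb1 share 21.7% to 23.7% and 39.1% to 43.1%.

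Among the inhibitors, Nfkbia (chr12:55489410-55492647, minus strand) encodes IκBα, the classical inhibitor that holds Rela- and Rel-containing dimers in the cytoplasm. It was at 115, 100.1 and 100.4 CPM at rest and at 154, 181 and 289 CPM with LPS. Every LPS library was above every resting library, with the 3′RR-deficient LPS library highest. Nfkbia rose with a log2 fold change of 0.93 (SE 0.28, adjusted p = 0.0264), above 0 in 3 of 3 genotypes, and the ratio of LPS to resting level was 1.34 in wt, 1.81 in Eμ-deficient and 2.88 in 3′RR-deficient cells.

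Nfkbie (chr17:45555703-45563169, plus strand), which encodes IκBε, a related inhibitor of Rel and Rela, went the other way. Its levels were 75.7, 68.9 and 79.8 CPM at rest and 36.9, 47.8 and 46.7 CPM with LPS, without overlap. It fell by 0.78 on the log2 scale (SE 0.23, adjusted p = 0.0225), below 0 in 3 of 3 genotypes.

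Tnfaip3 (chr10:19000910-19015657, minus strand) encodes a ubiquitin-editing enzyme that ends signalling upstream of IKK. It was at 184, 205 and 199 CPM at rest and at 50.2, 56.3 and 59.3 CPM with LPS. The values were close together within each state and far apart between them. Its log2 fold change was -1.83 (SE 0.24, adjusted p = 0.000497), the genotypes' own ratios were -1.88, -1.86 and -1.75, and the call held in every alternative fit. With the GC trend removed the ratios were -1.85, -1.92 and -1.80.

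Bcl3 (chr7:19808462-19822770, minus strand) encodes a nuclear IκB family member that binds homodimers of the Nfkb1 and Nfkb2 products and can inhibit or activate transcription. It was the least abundant of the 10 genes per length at rest, with 27.9, 10.9 and 30.6 CPM, and had 33.8, 36.6 and 61.7 CPM with LPS. The resting Eμ-deficient library was far below the others, on 144 counts. Bcl3 rose with a log2 fold change of 1.00 (SE 0.30, adjusted p = 0.0253), above 0 in 3 of 3 genotypes, with log2 ratios of 0.28 (interval 0.11 to 0.44) in wt, 1.75 (1.47 to 2.04) in Eμ-deficient and 1.012 (0.84 to 1.18) in 3′RR-deficient cells. The wt ratio was 1.07 with the GC trend removed. With scaling by the total gene count, however, wt cells were nearly level, at 31.6 CPM at rest and 32.2 CPM with LPS. The antisense gene Gm16175, which shares 161 bases of exon with Bcl3, had 0 counts in all 6 libraries.

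Nfkbiz (chr16:55811375-55838899, minus strand) encodes IκBζ, another nuclear member, which is induced by TLR ligands and activates secondary response genes with the Nfkb1 product. Its levels were 64.9, 98.4 and 88.8 CPM at rest and 62.0, 47.7 and 57.0 CPM with LPS. The wt pair was nearly level, and both mutant pairs were lower with LPS. With the GC trend removed the wt LPS library (64.18 CPM) lay just above the resting one (63.65 CPM), so the groups overlapped. The log2 fold change of -0.58 (SE 0.26) missed the threshold (adjusted p = 0.0976), and it passed without the resting wt library (adjusted p = 0.00487), without the wt LPS library (0.00247) and without both (0.00427), where 46.6%, 47.1% and 47.9% of all genes passed. Without the resting Eμ-deficient library, the Eμ-deficient LPS library or both, it shrank to -0.36 (adjusted p = 0.597), -0.33 (0.627) and -0.26 (0.713).

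Several of these calls depended on the libraries of 1 genotype. With genotype as a block, a library left without its partner carries no information on LPS. Leaving out either library of a genotype, or both, was therefore nearly the same fit of the other genotypes and not a separate check. Nfkbia, Nfkbie and Bcl3 kept an adjusted p below 0.05 when a wt library was left out, and lost it when any other library was left out. Without the resting Eμ-deficient, the resting 3′RR-deficient, the Eμ-deficient LPS or the 3′RR-deficient LPS library, the adjusted p was 0.141, 0.217, 0.115 and 0.195 for Nfkbia, 0.113, 0.0749, 0.120 and 0.0842 for Nfkbie and 0.287, 0.0558, 0.254 and 0.0503 for Bcl3, and 3 genes (Rel, Relb and Tnfaip3) passed in each of these fits, which had 1 residual degree of freedom and in which 27.7%, 33.4%, 27.7% and 33.7% of all genes passed, against 40.8% with all libraries. In the same order, the log2 fold changes were 0.97, 0.62, 0.99 and 0.64 for Nfkbia, -0.91, -0.80, -0.88 and -0.78 for Nfkbie and 0.64, 0.98, 0.66 and 1.00 for Bcl3. Nfkbie thus lost its call with a fold change no smaller than with all libraries, while that of Bcl3 shrank without an Eμ-deficient library and that of Nfkbia without a 3′RR-deficient library. Nfkbia (adjusted p = 0.0542) and Bcl3 (0.0557) also lost their calls with scaling by the total gene count, and Bcl3 without a genotype term (0.113). The log2 fold changes there were 0.84 for Nfkbia, and 0.91 and 0.92 for Bcl3, about as large as in the main fit. Removing the GC trend moved 13 of the 30 log2 ratios of LPS to resting beyond their counting intervals, all of them in wt or 3′RR-deficient cells. In wt cells, besides Nfkb1, Relb and Bcl3, it moved Nfkb2 and Rela from -1.27 to -0.56, Nfkbie from -1.03 to -0.58, Nfkbia from 0.43 to 0.71 and Rel from -1.86 to -2.26. In 3′RR-deficient cells, besides Nfkb1, it moved Nfkb2 from -0.53 to -0.64, Rel from -2.22 to -1.95, Nfkbia from 1.52 to 1.38 and Nfkbie from -0.77 to -0.96. Scaling by the total gene count moved 10 of the 30 ratios beyond their intervals. With it the rise of Nfkbia in wt cells was smaller, from 129 CPM at rest to 146 CPM with LPS.

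**Figure D3:**
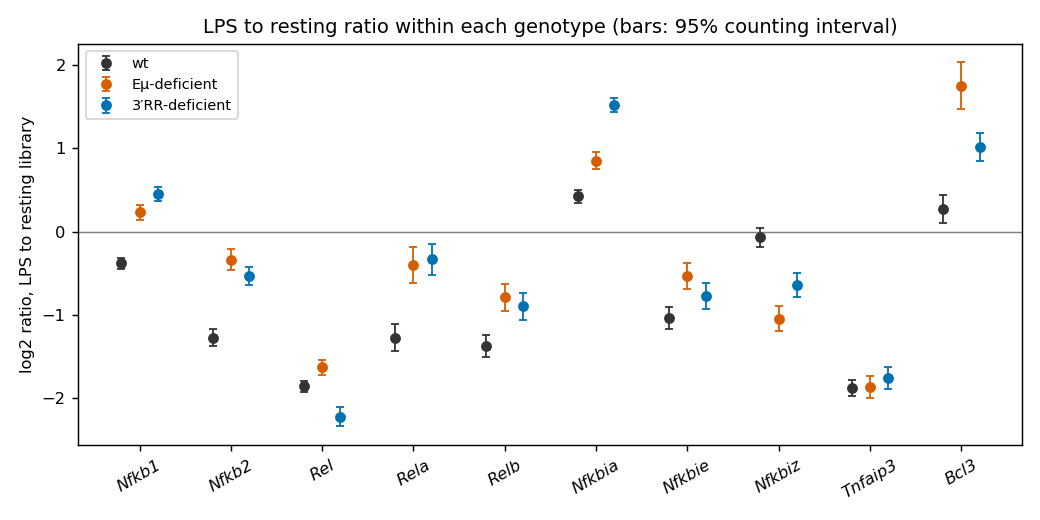
Log2 ratio of the LPS to the resting library within each genotype (vertical axis), with bars for the 95% interval of counting error only, for each of the 10 genes. Tnfaip3 was nearly the same in the 3 genotypes (-1.88, -1.86 and -1.75), while Nfkb1 was below 0 in wt and above 0 in both mutants.

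Per kb of transcript, and without correction for GC content, the order of mean levels over the 3 genotypes could be compared between genes. At rest Nfkbia led with 66.5 ± 5.22 CPM per kb (SD over the 3 libraries), followed by Rel with 51.9 ± 3.64, Tnfaip3 with 44.4 ± 2.42, Nfkb1 with 40.3 ± 6.01, Relb with 35.5 ± 3.18, Nfkb2 with 33.5 ± 7.61, Nfkbie with 30.7 ± 2.25, Nfkbiz with 20.4 ± 4.19, Rela with 16.4 ± 2.91 and Bcl3 with 12.5 ± 5.77. Neighbours from Tnfaip3 to Nfkbie in that order, and the last 3, differed by less than their summed SDs, whereas Nfkbia and Rel, Rel and Tnfaip3, and Nfkbie and Nfkbiz differed by more. With LPS Nfkbia led with 132 ± 45.3 CPM per kb and Nfkb1 was next with 43.4 ± 8.25. The other 8 genes lay between 10.5 ± 2.91 (Rela) and 23.8 ± 8.28 (Bcl3), and none of the neighbours among them differed by more than their summed SDs. Rel went from rank 2 to rank 7 and Tnfaip3 from rank 3 to rank 9, while Bcl3 went from rank 10 to rank 3. Over total exon length, Nfkb1 ranked 9 at rest and 4 with LPS, and Nfkbia still led in both states. The ratio of Nfkbia to Tnfaip3 per kb was 1.74, 1.37 and 1.41 at rest and 8.58, 8.999 and 13.7 with LPS, in wt, Eμ-deficient and 3′RR-deficient cells.

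The second comparison asked whether the genes differed with the loss of either enhancer. In fits with culture state as a covariate, 0 of the 10 genes passed in edgeR between Eμ-deficient and wt cells (1.16% of all genes tested passed), 0 of 10 between 3′RR-deficient and wt cells (0.678%) and 0 of 10 between Eμ-deficient and 3′RR-deficient cells (1.30%). DESeq2 also gave 0 in each. At an unadjusted p below 0.05 the counts were 0, 0 and 1 (8.68%, 5.69% and 12.5% of all genes tested), the last being Bcl3, lower in Eμ-deficient than in 3′RR-deficient cells (log2 fold change -1.07, SE 0.36, adjusted p = 0.271). Bcl3 also had the lowest adjusted p against wt in Eμ-deficient cells (log2 fold change -0.61, SE 0.36, adjusted p = 0.845). Its values depended on single libraries. Between Eμ-deficient and wt cells the log2 fold change was -1.14 without the wt LPS library (adjusted p = 0.0183, with 8.58% of all genes passing), but -0.08 without the resting wt library and -0.08 without the resting Eμ-deficient library. Between 3′RR-deficient and wt cells it was 1.05 without the resting wt library (adjusted p = 0.0348, with 10.7% of all genes passing), but -0.04 without the wt LPS library. Between Eμ-deficient and 3′RR-deficient cells the adjusted p was 0.00234 without the wt LPS library (13.3% of all genes passing) and 0.00515 without the resting wt library (11.6%), but the log2 fold change was -0.58 without the resting Eμ-deficient library, which did not pass. The 3 genotype contrasts share libraries, and a p that misses the threshold does not show that levels were alike.

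Within a culture state the ratio of 2 libraries is a comparison of those libraries alone, and all ratios to wt in a state share the same wt library. At rest, 8 of the 10 genes were lower in the Eμ-deficient than in the wt library, with a median log2 ratio of -0.23, against 0.03 for all genes tested. With LPS 9 of 10 were higher, with a median of 0.22, against 0.02 for all genes. The largest difference at rest was that of Bcl3, at a log2 ratio of -1.36 (95% counting interval -1.64 to -1.09) on 144 and 508 counts, and it was -0.82 with the GC trend removed. Nfkbiz was higher in the resting Eμ-deficient library (0.60, interval 0.48 to 0.71) and lower with LPS (-0.38, interval -0.53 to -0.23), and these ratios were 0.65 and -0.46 with the GC trend removed. For Nfkb2 and Rela the resting ratios of -0.63 and -0.52 became -0.16 and -0.05, and for Relb, Nfkbia and Nfkbie the sign turned (Relb from -0.26 to 0.25, Nfkbia from -0.19 to 0.02, Nfkbie from -0.13 to 0.21). Nfkb1 went from -0.41 to -0.19 at rest and Rel from -0.09 to -0.38. In the LPS libraries most ratios shrank, from 0.21 to 0.05 for Nfkb1, 0.30 to 0.06 for Nfkb2, 0.35 to 0.11 for Rela, 0.32 to 0.06 for Relb, 0.23 to 0.08 for Nfkbia and 0.37 to 0.18 for Nfkbie. Rel went from 0.14 to 0.25, and Bcl3, whose interval included 0, from 0.11 to -0.15. The resting Eμ-deficient library was also the one with 20144 CPM of erythroid and 366 CPM of myeloid marker RNA, whose part in these ratios was not tested.

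For 3′RR-deficient against wt cells, the resting libraries were close. Log2 ratios lay between -0.30 (Nfkb1) and 0.45 (Nfkbiz, interval 0.34 to 0.56), and 6 of 10 were below 0. The median was -0.07, against 0.02 for all genes tested. The count below 0 depended on the scaling. By the total gene count, which shifts all genes of a library alike, every gene but Nfkbiz was lower in the 3′RR-deficient library. Nfkb1 was then at 156 CPM against 219 CPM in wt. With LPS 8 of 10 were higher in the 3′RR-deficient library, with a median log2 ratio of 0.45, against 0.09 for all genes tested. Nfkbia (0.91, interval 0.83 to 0.98), Bcl3 (0.87, interval 0.70 to 1.03), Rela (0.79) and Nfkb2 (0.71) were the largest, and Rel was at -0.57 (interval -0.69 to -0.45). Removing the GC trend changed most of these ratios. Nfkbia was then at 0.54, Nfkb1 at 0.15 (from 0.54), Bcl3 at 0.11 and Rela at 0.06, and the sign turned for Nfkb2 (-0.03), Rel (0.01), Relb (from 0.37 to -0.38) and Nfkbie (from 0.34 to -0.23). Tnfaip3 kept small ratios to wt in the LPS libraries under both treatments, 0.16 and 0.09 for Eμ-deficient and 0.24 and 0.18 for 3′RR-deficient cells.

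**Figure D4:**
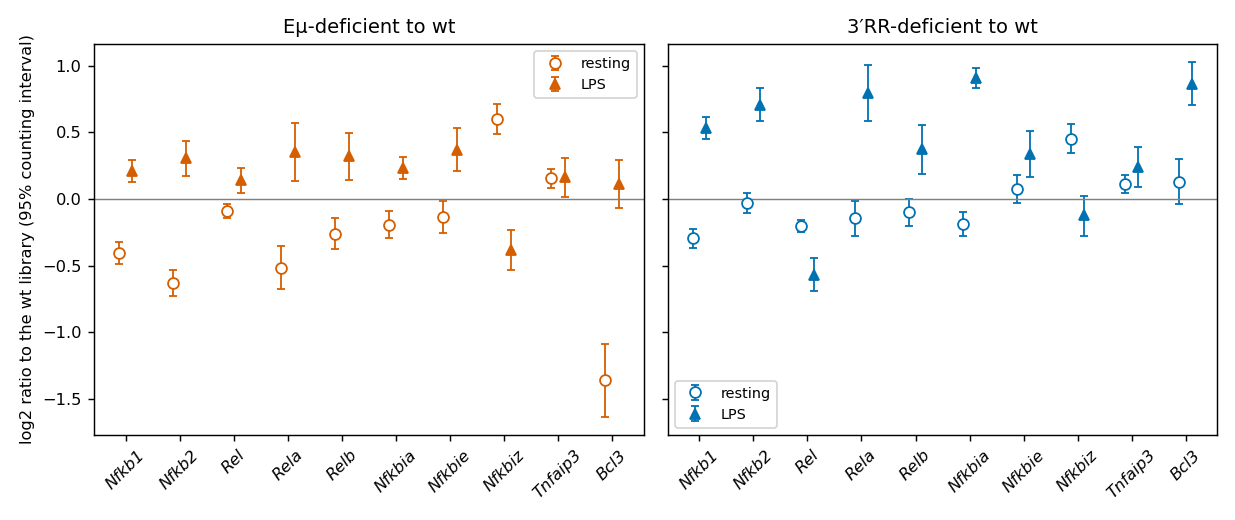
Log2 ratio of the Eμ-deficient (left) and 3′RR-deficient (right) library to the wt library of the same culture state (open circles resting, filled triangles LPS), with bars for the 95% interval of counting error only and no correction for GC content. Bcl3 in resting Eμ-deficient cells stands lowest at -1.36, and with LPS 8 of 10 genes lie above 0 in 3′RR-deficient cells. Among ratios with an interval clear of 0, directions that turn once the GC trend is removed are those of Relb, Nfkbia and Nfkbie at rest on the left and of Nfkb2, Rel, Relb and Nfkbie with LPS on the right.

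Genes around the pathway were counted from lists of the regulators, kinases, adaptors and targets. Of 17 other negative regulators, 2 rose with LPS, 5 fell and 10 did not pass, where 19.7% of all genes tested rose and 21.1% fell, and the median log2 fold change was -0.50. Commd1, which promotes degradation of Rela, rose from 7.15, 7.19 and 7.29 CPM at rest to 24.8, 15.1 and 11.8 CPM with LPS (log2 fold change 1.19, adjusted p = 0.0108), and Nkiras2, a Ras-like protein that slows degradation of the IκB proteins, rose less (0.67, adjusted p = 0.0497). Nfkbid, a nuclear IκB, fell from 181, 149 and 149.7 CPM to 28.3, 23.9 and 35.05 CPM (-2.47, adjusted p = 0.000183). Zc3h12a, an RNase that degrades inflammatory mRNAs, fell from 110.2, 82.0 and 99.01 CPM to 20.3, 22.1 and 30.9 CPM (-2.0, adjusted p = 0.000432). The largest falls of this list were thus as deep as those of Rel and Tnfaip3.

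Of 11 genes of the IKK complex and its upstream kinases, 0 rose, 4 fell and 7 did not pass (median -0.40), against 19.7% higher and 21.1% lower among all genes tested. At an unadjusted p below 0.05 and with DESeq2 the number passing in either direction was also 4, against 50.3% and 39.2% of all genes tested. Ikbkb, the catalytic IKK subunit of the canonical branch, fell from 159, 122 and 180.2 CPM to 52.2, 65.8 and 73.9 CPM (log2 fold change -1.26, adjusted p = 0.00405), and Map3k14, the kinase that starts the non-canonical branch, fell from 41.6, 25.8 and 39.2 CPM to 8.75, 14.8 and 20.7 CPM (-1.32, adjusted p = 0.0100). No LPS library reached the resting level of its genotype for either gene. Of 18 adaptors and ubiquitin ligases between TLR4 or the B-cell receptor and IKK, 4 rose, 4 fell and 10 did not pass (median -0.24), close to the shares of all genes. The TLR4 adaptors Ticam2 (1.86, adjusted p = 0.00519) and Ticam1 (0.98, adjusted p = 0.0218) had the largest rises, and Malt1, the protease of the B-cell receptor branch (-1.41, adjusted p = 0.00226), and Irak2, a kinase of the TLR branch (-1.02, adjusted p = 0.0113), the largest falls.

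Of 31 textbook NF-κB target genes, 10 rose, 8 fell and 13 did not pass (19.7% and 21.1% of all genes tested rose and fell), with a median of 0.21. Il10, an anti-inflammatory cytokine, rose from 0.935, 3.71 and 1.12 CPM to 20.6, 55.5 and 23.3 CPM (log2 fold change 4.22, adjusted p = 6.65e-05), and Il2ra, a chain of the interleukin-2 receptor, from 0.66, 1.06 and 2.53 CPM to 12.2, 27.6 and 18.2 CPM (3.83, adjusted p = 0.000218). Junb, an AP-1 transcription factor, fell from 773, 331 and 421 CPM to 52.8, 76.9 and 71.7 CPM (-2.84, adjusted p = 0.000617), and Ccr7, a chemokine receptor for homing to lymphoid organs, from 213, 87.3 and 226 CPM to 21.2, 30.3 and 23.0 CPM (-2.73, adjusted p = 0.000832). In each of the 4 lists 0 genes passed in edgeR in any genotype contrast (1.16%, 0.678% and 1.30% of all genes tested for Eμ-deficient against wt, 3′RR-deficient against wt and Eμ-deficient against 3′RR-deficient cells). With DESeq2, 2, 0 and 1 target genes passed in these contrasts, as did 1 negative regulator in the last (2.33%, 1.21% and 2.51% of all genes tested). At an unadjusted p below 0.05 in edgeR, which 8.68%, 5.69% and 12.5% of all genes tested had, the counts were 6, 1 and 9 for the target genes, 0, 0 and 1 for the negative regulators, 0, 0 and 1 for the adaptors and 0 in each for the kinases.

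**Figure D5:**
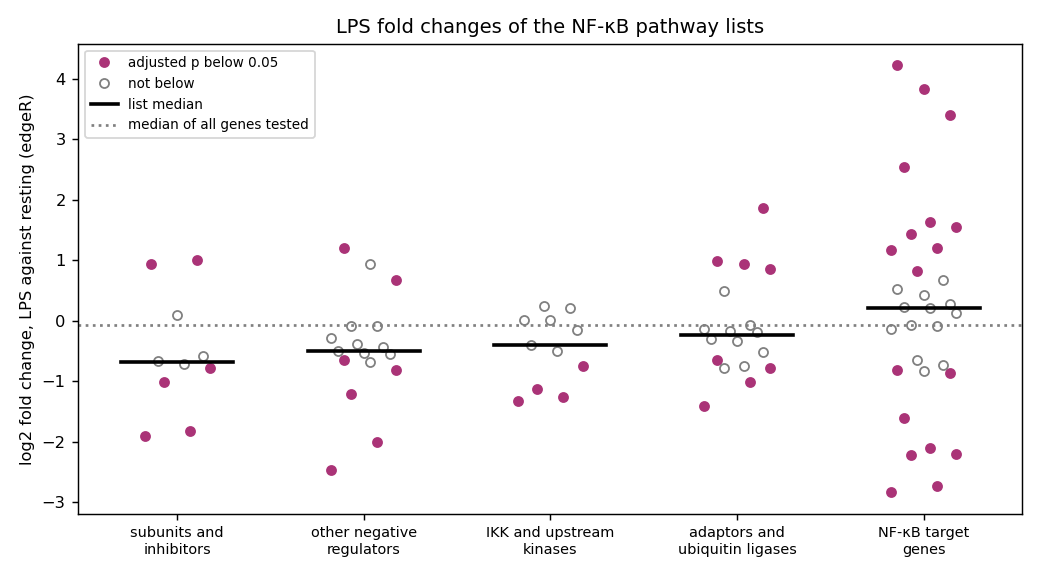
Log2 fold change of LPS against resting cells from edgeR (vertical axis) for the 10 genes and the 4 pathway lists, with filled points for genes with an adjusted p below 0.05, open points for the others, a black line at each list's median and a dotted line at the median of all genes tested (-0.07). The lists other than the target genes had medians below that line, and the target genes spread from -2.84 to 4.22.

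Finally, the genes with the most similar profile over the 6 libraries were found among 5538 genes with a mean of at least 20 CPM, as the smallest Euclidean distance of centred log2 CPM. They were Eri3 (distance 0.14) and Gtf2i (0.18) for Nfkb1, Rere (0.12) and Usp19 (0.14) for Nfkb2, Arl5b (0.17) and Klhl24 (0.27) for Rel, Ncoa2 (0.07) and Rab11b (0.10) for Rela, and 5031414D18Rik (0.16) and Kat6b (0.20) for Relb. For the inhibitors they were Txn2 (0.14) and Mdh2 (0.16) for Nfkbia, Lonp2 (0.15) and Stx5a (0.17) for Nfkbie, Lpcat1 (0.22) for Nfkbiz, and H2-Aa (0.11) and Bsdc1 (0.17) for Tnfaip3. Bcl3 had no close neighbour, since Srebf2 and Mbd3, its nearest genes, lay 0.49 and 0.50 away. None of these neighbours is another of the 10 genes.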

How the data were processed

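RNA-seq counts per gene of 6 libraries (3 genotypes, resting or LPS, 1 library each) were deposited by the authors, who per the labels and methods aligned reads of 150 bases to mm10 with STAR 2.4.0a and counted them over Ensembl 77 genes with featureCounts (Subread 1.4.6-p1, strand option 1, multi-mapping reads included). The labels name a TruSeq stranded kit, for which the other strand option is usual. Psd and Gm16175, whose exons overlap those of Nfkb2 and Bcl3 on the opposite strand, had at most 20 counts, and counts were read as sense strand; other genes were not checked for this. The 92 spike-in RNAs, 4.75% to 7.10% of all counts, were left out of library sizes. The 14600 genes that reached 10 counts in 2 or more libraries were scaled by TMM and tested with edgeR 4.0.16 in R 4.3.3 (quasi-likelihood, genotype plus culture state, 2 residual degrees of freedom) in 4 contrasts, with p-values adjusted by Benjamini-Hochberg across the 14600 genes and a threshold of 0.05. In a single run of the fit on simulated counts, nearly all genes given a known change passed, and the share of unchanged genes among those passing was slightly above the threshold. That run checked the fit under its own settings only and is no check of the calls made here. Ratios of 2 libraries have exact (Clopper-Pearson, scipy 1.17.1) 95% intervals, which cover counting error only. Lengths, GC content and coordinates came from GENCODE M21 (GRCm38). Alternatives were DESeq2 1.42.0, its size factors, total count, TMM without immunoglobulin genes, removal of the trend on GC content, other filters, no genotype term, and leaving out libraries. For the genotype ratios within a culture state the alternatives were chosen after seeing the data. Besides the 10 genes, the text names from each pathway list the largest 2 rises and 2 falls among genes passing with LPS and moving the same way in all 3 genotypes, and each gene's 2 nearest profiles. Marker and antisense genes fall outside that rule. A marker and a nearest profile are not reported here. The genes described and the lists were chosen with earlier results of these data known.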

Additional observations from a re-analysis of the deposited data

Results flagged for a closer look

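For 8 of the 10 genes, the log2 ratio of a mutant to the wt library lay on one side of 0 at rest and on the other with LPS, each with a 95% counting interval clear of 0, which is what set these results apart as a difference between groups. The same rule was met by 26.1% of all genes tested and by 46.6% of the 5335 genes whose counts never fell below 144, the lowest count among the 10 genes. For Eμ-deficient cells alone it was 8 of the 10 genes, against 16% and 29.8%, and for 3′RR-deficient cells alone 3 of 10, against 17.6% and 32.4%. The value given is the LPS minus the resting log2 ratio. For Eμ-deficient against wt cells it was 0.61 for Nfkb1, 0.94 for Nfkb2, 0.23 for Rel, 0.87 for Rela, 0.58 for Relb, 0.43 for Nfkbia, 0.51 for Nfkbie and -0.98 for Nfkbiz. For 3′RR-deficient against wt cells it was 0.83 for Nfkb1, 0.94 for Rela and 1.10 for Nfkbia. These differences were not tested, since each group was 1 library, and all of them share the resting and the LPS library of wt cells, so they are not separate observations. GC content and spike-in proportions differed between the same libraries. With the GC trend removed and the intervals shifted by it, an alternative chosen after seeing the data, 2 of the 10 genes (Rel and Nfkbiz) met the rule in Eμ-deficient cells, as did 10% of all genes and 18% of those with at least 144 counts. In 3′RR-deficient cells 4 of 10 did (Nfkb1 and Nfkbia, and Nfkbie and Nfkbiz, which had not met it before), against 11.3% and 21.9%. For either mutant it was then 5 of 10, against 17.3% and 31.8%. The change of sign itself was gone for Relb, Nfkbia and Nfkbie in Eμ-deficient cells, whose resting and LPS ratios were then 0.25 and 0.06, 0.02 and 0.08, and 0.21 and 0.18. For Nfkb1, Nfkb2 and Rela in Eμ-deficient and Rela in 3′RR-deficient cells the signs still differed, but at least 1 interval included 0. In Eμ-deficient cells the ratios were -0.19 and 0.05 for Nfkb1, -0.16 and 0.06 for Nfkb2, -0.38 and 0.25 for Rel, -0.05 and 0.11 for Rela and 0.65 and -0.46 for Nfkbiz, and in 3′RR-deficient cells -0.24 and 0.15 for Nfkb1, -0.06 and 0.06 for Rela and -0.13 and 0.54 for Nfkbia. The part of GC content, and of the erythroid and myeloid RNA of the resting Eμ-deficient library, was not tested.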

How the results depend on the processing

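Rel and Tnfaip3 kept their fall with LPS and an adjusted p below 0.05 in all 17 alternatives (adjusted p up to 0.00243 and 0.00273). The number of the 10 genes passing with LPS was 6, and ranged from 4 to 8 under the other tools, scalings and filters. It was 7 with DESeq2, 4 with total count and 5 with no genotype term (Bcl3 lost its call, log2 fold change 0.92, adjusted p = 0.113). With the GC trend removed it was 8, as with a stricter filter of at least 50 counts in 3 libraries. The share of all genes passing was 40.8% in the main fit, and 39.2%, 39.4%, 37.1%, 50.4% and 44.1% in these settings, in the same order. Leaving out libraries gave 2 to 7: it was 3 without the resting Eμ-deficient, resting 3′RR-deficient, Eμ-deficient LPS or 3′RR-deficient LPS library or both 3′RR-deficient libraries, 2 without both Eμ-deficient libraries, and 7 without a wt library or both, while 27.7% to 34.0%, 28.0% and 46.6% to 47.9% of all genes passed. Of the 17 alternatives, 9 left out libraries. These leave 1 residual degree of freedom, and leaving out either library of a genotype, or both, was nearly the same fit for LPS. Genes passing with LPS numbered 5962, and 3960 to 6751 when libraries were left out (3962 without the resting Eμ-deficient library). Between Eμ-deficient and wt cells, 1 of the 10 genes (Bcl3) passed without the wt LPS library (log2 fold change -1.14, adjusted p = 0.0183, with 8.58% of all genes passing, and -0.081 without the resting wt library), and between 3′RR-deficient and wt cells 1 (Bcl3) without the resting wt library (1.05, adjusted p = 0.0348, with 10.7% of all genes passing, and -0.040 without the wt LPS library). Between Eμ-deficient and 3′RR-deficient cells Bcl3 passed without the filter (adjusted p = 0.0453) and without either or both wt libraries (2.68% of all genes, and 11.6% to 13.3%). All genes passing between Eμ-deficient and wt cells numbered 170, and 340 with DESeq2, 605 without the filter, 102 with the stricter filter and 194 to 1230 when libraries were left out. Between 3′RR-deficient and wt cells they numbered 99, and 177, 339, 48 and 111 to 1521 in the same order, and between Eμ-deficient and 3′RR-deficient cells 190, and 366, 777, 119 and 199 to 1910. The cause was not tested. Among log2 ratios to wt within a culture state whose counting interval was clear of 0, 9 values reversed. With the GC trend removed these were, for 3′RR-deficient cells with LPS, Nfkb2 (-0.031), Rel (0.0098), Relb (-0.38) and Nfkbie (-0.23), and for resting Eμ-deficient cells, Relb (0.25), Nfkbia (0.017) and Nfkbie (0.21). With total-count scaling they were Tnfaip3 in resting Eμ-deficient (-0.043) and resting 3′RR-deficient cells (-0.076). The cause was not tested. Some ratios whose interval included 0 changed sign too, such as Bcl3 in Eμ-deficient cells with LPS (from 0.11 to -0.15 with the GC trend removed). Of the 30 ratios of LPS to resting, none with an interval clear of 0 reversed.

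With 1 library per group, the data give no spread between mice and no test of genotype within a culture state. The p-values rest on how evenly genotypes responded, with that spread pooled across all genes tested. The labels and the methods differ on how mice were pooled and on the resting culture. GC content and spike-in proportions differ between libraries in ways that move with the comparisons, and counting error is the only error in the ratios of 2 libraries. Cells of other types were present at rest. Levels of mRNA do not give protein or nuclear activity.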
